A study of Mus musculus with 16 samples.

Results

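The chemokines CCL2, CCL5, CCL7, CCL8, CCL9, CXCL1, CXCL5, CXCL10, CXCL12 and CXCL14 were followed in PA6 cells, a mouse stromal line used as a feeder, grown alone or under differentiating mouse embryonic stem (ES) cells. The genes were chosen by the level of CCL9, which was far lower in ES/PA6 co-cultures than in PA6 cells alone, and by name. That difference, and the same difference in the other genes, is therefore described without a test. Of the 10 genes, 8 had a probe on the array table (15 probes in all), and CCL8 and CXCL5, which had none under these names, were not analysed here. After a filter on dim probes 6 of them were among the 14829 genes tested, out of 30854 target names, namely CCL2, CCL5, CCL7, CCL9, CXCL12 and CXCL14.

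RNA of 16 cultures was hybridized to 1 array each at day 7, 9 of PA6 cells alone and 7 of co-cultures, all in serum-free medium. Cells received nothing else (-GFs), 20 ng/ml of FGF2 or, per the labels, 10 ng/ml of BMP4, a dose that is lower in the methods. The methods also state that each factor was withdrawn after 3 days. PA6 cells alone comprised 3 arrays in each medium, and the co-cultures comprised 2 arrays in -GFs medium, 3 with FGF2 and 2 with BMP4. The ES cells carried an EGFP knock-in at the tau locus and had been maintained on fibroblast feeders. A co-culture array measured the RNA of ES-derived cells and PA6 cells together, so fewer cells of a type and less RNA per cell cannot be told apart.

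Chemokines are small secreted proteins that bind seven-helix receptors and guide the migration of leukocytes and progenitor cells. Bone marrow stroma is a major source of CXCL12, which holds blood progenitors in the marrow through the receptor CXCR4. CC chemokines such as CCL2 and CCL7 recruit monocytes, and their genes are transcribed in stroma and other cells when NF-kB or AP-1 factors are activated by inflammatory signals.

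The CC genes lie side by side on mouse chromosome 11 in the RefSeq annotation of GRCm38.p6. One row of neighbours ran Ccl2, Ccl7, Ccl11, Ccl12, Ccl8 and Ccl1, and another ran Ccl5, Ccl9, Ccl6, Ccl3 and Ccl4. Sequences of the 250 bases before the transcription start were found for 6 of the 10 genes. The 3 printed here are those of the gene that set the choice of members (Ccl9), of the brightest stromal member (Cxcl12) and of the member that passed a test (Cxcl14). They are RefSeq GRCm38.p6 sequences, written 5′ to 3′ on the strand of the gene, and capitals mark letters that match a searched motif. The windows are chr11:83578637-83578886 on the minus strand for Ccl9, chr6:117168285-117168534 on the plus strand for Cxcl12 and chr13:56296552-56296801 on the minus strand for Cxcl14.
Ccl9: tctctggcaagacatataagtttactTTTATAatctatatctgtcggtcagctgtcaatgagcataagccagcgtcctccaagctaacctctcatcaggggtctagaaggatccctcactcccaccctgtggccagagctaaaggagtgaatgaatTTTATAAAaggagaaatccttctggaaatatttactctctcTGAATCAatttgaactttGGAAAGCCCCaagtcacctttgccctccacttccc
Cxcl12: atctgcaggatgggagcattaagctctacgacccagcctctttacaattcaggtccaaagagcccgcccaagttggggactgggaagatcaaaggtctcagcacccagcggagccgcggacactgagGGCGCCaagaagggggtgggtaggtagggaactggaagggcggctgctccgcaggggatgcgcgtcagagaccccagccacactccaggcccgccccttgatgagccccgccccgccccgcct
Cxcl14: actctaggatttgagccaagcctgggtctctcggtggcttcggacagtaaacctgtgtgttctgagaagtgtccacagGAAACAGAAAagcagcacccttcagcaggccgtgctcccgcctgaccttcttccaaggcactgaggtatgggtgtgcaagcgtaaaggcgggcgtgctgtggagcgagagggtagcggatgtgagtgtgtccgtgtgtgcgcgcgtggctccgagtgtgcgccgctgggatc

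Motifs were searched on both strands, and overlapping matches were counted. The Ccl9 window held an NF-kB motif that began 35 bases before the start, an AP-1 motif (TGANTCA) 53 bases before it, and 3 matches to TATAAA, of which a pair overlapped. The Cxcl12 window held GGCGCC, a motif bound by SMAD proteins of the BMP pathway, 123 bases before the start, and the Cxcl14 window held the core of an interferon-stimulated response element (ISRE) 172 bases before it. Of 32851 RefSeq windows of this kind, 7.25% held the NF-kB motif, 6.75% TGANTCA, 9.59% GGCGCC, 2.98% the ISRE core and 12.4% TATAAA. A match describes the letters of the window and not a bound site.

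The share of probes detected on an array, at a detection p-value under 0.05, ran from 37.3% to 47.0%, and the median raw intensity from 177.9 to 232.2. Each PA6 array detected 23 to 25 of 25 listed stromal markers, with a mean log2 intensity over the list of 12.59 to 13.10. In co-cultures that mean was 10.73 to 10.996 in -GFs medium, 10.60 to 11.11 with FGF2 and 11.07 to 11.26 with BMP4. All 12 pluripotency markers of the list were tested, and their mean was 6.20 to 6.56 on the PA6 arrays and 10.39 to 12.62 in co-cultures.

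CCL9 had the deepest difference between the kinds of culture among the members. It attracts leukocytes through the receptor CCR1. In PA6 cells alone its bead intensity was 7014.2, 7165.8 and 5087.4 in -GFs medium, 6944.7, 6800.3 and 4591.1 with FGF2, and 12096.4, 5085.7 and 4906.7 with BMP4. In co-cultures it was 215.2 and 208.3 in -GFs medium, both undetected, 482.3, 296.6 and 267.1 with FGF2, all detected, and 176.3 (undetected) and 537.1 with BMP4. Every PA6 array was above every co-culture array. On the normalized log2 scale the co-cultures were lower by 6.28 in -GFs medium, at least 60.6-fold against the detection level. The ratio of raw intensities, which keep the background, was 30.3. With FGF2 the difference of -5.39 left 2.39% of the level in PA6 cells, and with BMP4 the difference of -5.36 left 2.43%. With FGF2, where CCL9 was detected on every array, 5 of 14829 genes had a lower difference. This place follows from the choice of CCL9 on the same contrast and is no support for it. With BMP4 it was -4.01 without co-culture replicate 1, and without replicate 2 an undetected array alone was left.

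**Figure D1:**
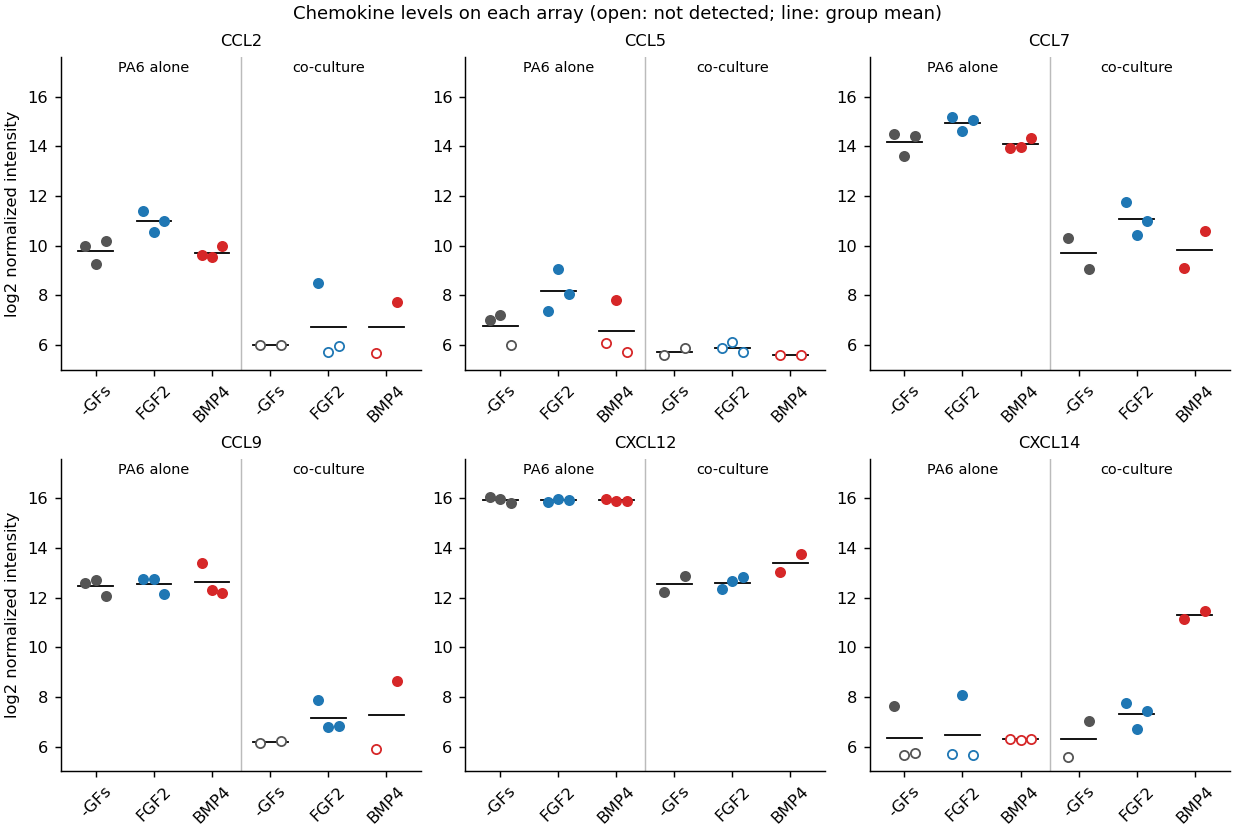
Log2 normalized intensity of the 6 tested chemokines on each of the 16 arrays, by medium, for PA6 cells alone (left of the line) and co-cultures (right), with open points for arrays on which the probe was not detected and a line at each group mean. CCL2, CCL7, CCL9 and CXCL12 sit higher on every PA6 array than on any co-culture array, while CXCL14 stands near 11.30 in BMP4 co-cultures alone.

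CCL7 and CCL2, the neighbouring genes that encode monocyte attractants acting through CCR2, were next. CCL7 had intensities of 25988.7, 12832.6 and 25710.1 in PA6 cells in -GFs medium and of 1392.4 and 683.7 in the co-cultures, and with FGF2 of 35159.5, 24415.4 and 34922 in PA6 cells and 3860.3, 1484.4 and 2085.7 in co-cultures. With BMP4 the values were 16657.1, 16000.5 and 20999.7 in PA6 cells and 672.6 and 1622.7 in co-cultures. The kinds of culture did not overlap, with differences of -4.49, -3.89 and -4.23 on the log2 scale in -GFs, FGF2 and BMP4 medium. CCL7 was detected on all 16 arrays.

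CCL2 had intensities of 1212.4, 739.4 and 1511.4 in PA6 cells in -GFs medium, 2855.7, 1564.4 and 2107.9 with FGF2, and 1013.4, 877.2 and 1083.4 with BMP4. The co-cultures had 201.1 and 189.6 in -GFs medium, 628.6, 163.7 and 183.5 with FGF2, and 150.1 and 360.4 with BMP4. Only FGF2 replicate 1 (628.6) and BMP4 replicate 2 (360.4) were detected among these 7 arrays. On the normalized scale CCL2 was lower in co-cultures by at least 9.63-fold in -GFs medium (5.91-fold in raw intensity). The differences with FGF2 and BMP4 were -4.27 and -3.02. The latter was -1.99 without co-culture BMP4 replicate 1. Without co-culture FGF2 replicate 1 or BMP4 replicate 2, undetected arrays alone were left.

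CXCL12 was bright in both kinds of culture. Its main probe had intensities of 67087.3, 66329.9 and 62518 in PA6 cells in -GFs medium, 55186.1, 64818.5 and 65041.5 with FGF2, and 62558.3, 61018.6 and 63891.8 with BMP4. Each was at or above the 99.8th percentile of its array, so differences at this end of the scale are compressed. In co-cultures the values were 4763.5 and 7557.3 in -GFs medium, 5566.7, 6034.2 and 7116 with FGF2, and 7323.5 and 14107.4 with BMP4. The differences were -3.39, -3.31 and -2.54, which left 9.56%, 10.1% and 17.2% of the level in PA6 cells. The other retained CXCL12 probes gave -2.40 and -3.48 in -GFs medium, -1.99 and -3.66 with FGF2, and -1.95 and -2.96 with BMP4. The share left in co-cultures therefore depends on the probe.

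CCL5, a T cell and monocyte attractant, was dim. In PA6 cells its intensities were 255.7, 266.7 and 170.1 (undetected) in -GFs medium, 295.6, 609.6 and 346.3 with FGF2, and 212.1 (undetected), 363 and 152.9 (undetected) with BMP4. It was undetected on all 7 co-culture arrays, at 140.4 to 214.1, and it passed the filter through the FGF2 arrays of PA6 cells alone. On the normalized scale co-cultures were lower by at least 1.16-fold in -GFs medium and 3.21-fold with FGF2 (1.41-fold and 2.18-fold in raw intensity). With BMP4 the PA6 mean rested on 1 detected array of 3, so no fold is given.

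CXCL14, which is known from epithelia and skin as well as stroma, did not share the difference. Its brighter probe was detected on 2 of 9 PA6 arrays, with intensities of 322, 139.7 and 147.3 in -GFs medium, 157.1, 376.3 and 144.2 with FGF2, and 230.4, 200.8 and 192.3 with BMP4. The co-cultures had 150.3 (undetected) and 278.5 in -GFs medium and 461.9, 287.2 and 337.8 with FGF2. With BMP4 the co-cultures had 2107.4 and 2857.1, at least 21.9-fold above PA6 cells with BMP4 on the normalized scale. The log2 difference was 5.02, and 3.67 in the lowest alternative processing. CXCL14 passed the filter through the FGF2 and BMP4 co-cultures.

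CXCL1, a neutrophil attractant, was detected only on -GFs replicates 1 and 3 of PA6 cells alone, with intensities of 122.2 to 254.7 in PA6 cells and 121.4 to 241.9 in co-cultures. CXCL10, an interferon-induced T cell attractant, was detected by neither of its 2 probes on any of the 16 arrays, at 120 to 207.1. Neither gene was tested.

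Of the 6 tested members, 5, 5 and 4 were lower in co-cultures by more than 1 on the log2 scale in -GFs, FGF2 and BMP4 medium, where 21.9%, 23.1% and 20.5% of all genes were. These counts use the contrast on which the members were chosen. In -GFs and FGF2 medium they include CCL5, which was undetected on every co-culture array and whose bound in -GFs medium was 1.16-fold. The 25 stromal markers had median differences of -1.94, -1.97 and -1.51, with 20, 22 and 18 of them lower by more than 1. They ran from -5.05 to 0.19 in -GFs medium and from -4.34 to 0.86 with BMP4, so they do not give a single PA6 share of the RNA. Their expression in ES-derived cells was not tested. COL1A1, COL1A2 and COL3A1, the chains of fibrillar collagens, differed by -2.48, -2.65 and -2.82 in -GFs medium. CCL9 was below all 25 markers in each medium, and CCL2 and CCL7 were below all but S100A4, a calcium-binding protein of fibroblasts, at -5.05, -4.64 and -4.34. CCL5 was lower than the stromal median only with FGF2, and its co-culture values had no level above the detection limit.

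**Figure D2:**
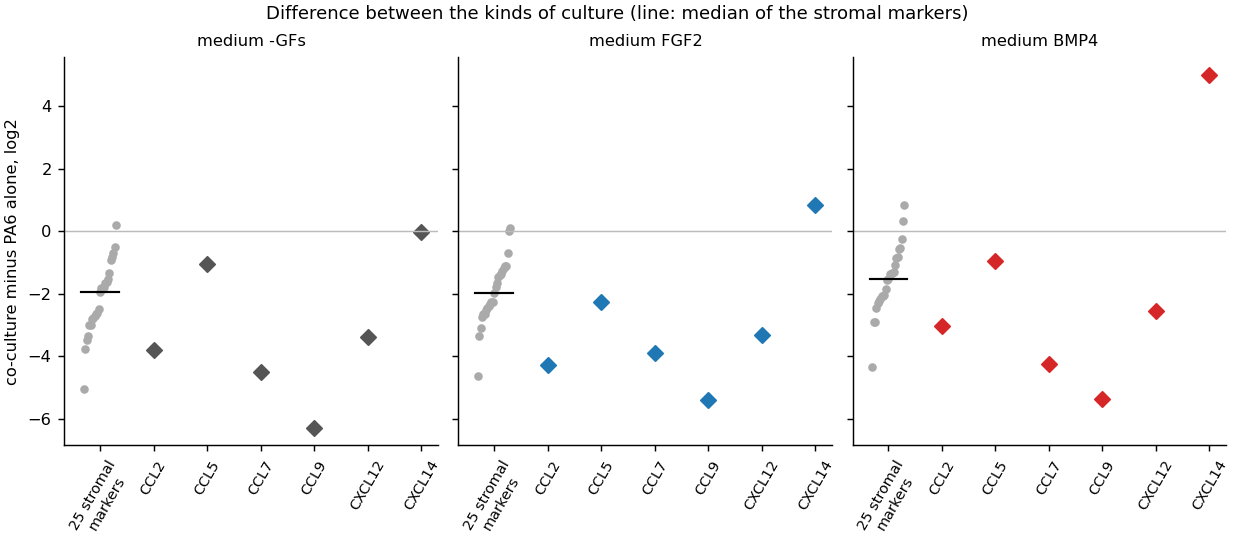
Difference between co-culture and PA6 cells alone on the log2 scale (below 0 is lower in co-culture) for 25 stromal markers (grey points, line at their median) and the 6 tested chemokines (diamonds), in each medium. CCL9, chosen on this difference, lies below every stromal marker in each panel, at -6.28, -5.39 and -5.36. CXCL14 rises to 5.02 in the BMP4 panel.

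Genes most like CCL9 were ranked by the root mean square distance between log2 profiles centred on their own means. Over all 16 arrays these were INMT (0.61), AGT (0.62), ABI3BP (0.65), S3-12 (0.66) and SDPR (0.68). Among them AGT encodes angiotensinogen and S3-12 a coat protein of lipid droplets. Over the 9 PA6 arrays alone they were 1600014C10RIK (0.13), IFNA6 (0.14), LYPLAL1 (0.16), MYO1G (0.18) and UCK1 (0.18), none of them among the former 5. The PA6 mean of MYO1G, 5.84, was below the lowest detection level of these arrays (6.59), so its profile there is background signal.

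The effect of each factor on PA6 cells alone bears on whether the stroma itself changed its chemokines. In PA6 cells with FGF2, CCL2, CCL7 and CCL5 were higher than in -GFs medium on the normalized scale on every array, and no member passed the threshold, an adjusted p under 0.1 and a log2 change over 1 (0.027% of all genes passed, 4 genes). CCL2 went from 9.80 ± 0.49 (SD, n = 3) to 10.99 ± 0.43 (SD, n = 3), a limma log2 change of 1.19 ± 0.29 (SE, adjusted p = 0.220). CCL5 had a change of 1.41 ± 0.60 (SE, adjusted p = 0.473) and CCL7 one of 0.77 ± 0.26 (SE, adjusted p = 0.372). At an unadjusted p under 0.05 there were 1536 of 14829 genes, CCL2 and CCL7 among them. CCL5 was too, but it passed the filter only through the FGF2 group that is high here, so its value is no support for a change.

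The groups of these 3 genes did not overlap on the normalized scale, where every FGF2 array was above every -GFs array for 8.18% of all genes. In raw intensity the groups of CCL7 overlapped, with 24415.4 on 1 FGF2 array against 25988.7 and 25710.1 in -GFs medium. Arrays of the same replicate number differed by 1.45, 1.29 and 0.82 for CCL2, by 0.37, 1.82 and 2.03 for CCL5 and by 0.66, 1.02 and 0.63 for CCL7. The second CCL7 probe gave 0.41 ± 0.31 (SE). The changes of the main probes of CCL9, CXCL12 and CXCL14 lay between -0.03 and 0.14.

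With BMP4 the main probes of the 6 members in PA6 cells changed by -0.21 to 0.17 against -GFs medium, with adjusted p of 0.910 or more, and no gene passed (0% of all genes, with 1334 genes at an unadjusted p under 0.05). The main CXCL12 probe lies at the top of the scale, and its value does not show that CXCL12 stayed level. A less bright CXCL12 probe read 44276.6 to 48408.6 with BMP4, 37436.6 to 42539.9 in -GFs medium and 30301.7 to 36183.3 with FGF2, so its BMP4 arrays were above all others. Its change with BMP4 was 0.36 ± 0.12 (SE, adjusted p = 0.531), and the second CCL7 probe changed by -0.49 ± 0.31 (SE, adjusted p = 0.666). Between BMP4 and FGF2, CCL2 differed by -1.27 ± 0.29 (SE, adjusted p = 0.186), CCL5 by -1.61 ± 0.60 (SE, adjusted p = 0.445) and CCL7 by -0.87 ± 0.26 (SE, adjusted p = 0.330), and 0.31% of all genes passed. The groups of CCL2 and CCL7 did not overlap, and those of CCL5 did, but the share of all genes without overlap was not counted for this contrast. CCL5 passed the filter only through the FGF2 group, so its value is no support for a difference. Replicate numbers paired the PA6 arrays by their correlations alone, and with the number as a block CCL2 passed (adjusted p = 0.0820 by limma). The main probes of the other 3 members differed by -0.19 to 0.07, and the less bright CXCL12 probe by 0.45 ± 0.12 (SE, adjusted p = 0.268) without overlap.

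**Figure D3:**
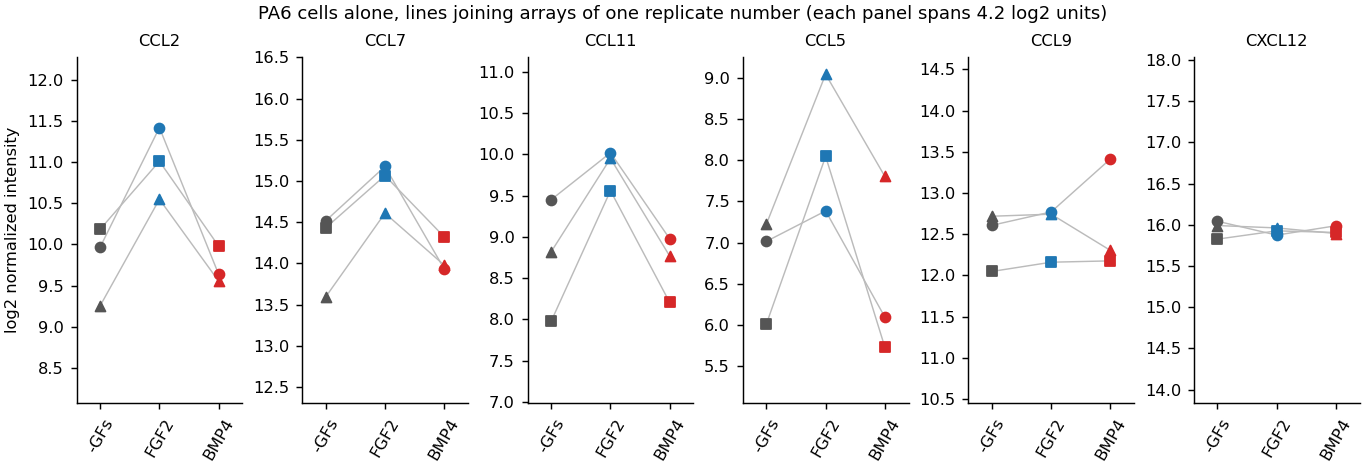
Log2 normalized intensity of 6 chemokine genes in PA6 cells alone by medium, with lines joining the arrays of one replicate number (circle 1, triangle 2, square 3) and every panel spanning the same range. CCL2, CCL7, CCL11 and CCL5 peak with FGF2 on each of the 3 lines, while CCL9 and CXCL12 do not. CCL5 passed the filter only through its FGF2 arrays.

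CCL11, an eosinophil attractant whose gene neighbours Ccl7, had intensities in PA6 cells of 869.3, 578 and 396.9 in -GFs medium, 1157.8, 1052.8 and 800.1 with FGF2, and 693.6, 568.4 and 379 with BMP4. Its normalized FGF2 and -GFs groups did not overlap, with FGF2 higher, as for 8.18% of all genes. The change with FGF2 was 1.09 ± 0.35 (SE, adjusted p = 0.355), and BMP4 differed from FGF2 by -1.19 ± 0.35 (SE, adjusted p = 0.316, or 0.0886 with the replicate block, past the threshold). Of 19 tested genes of the NF-kB list, 0 passed in PA6 cells with FGF2, and their median change was 0.04. Among the 4 genes that passed in that comparison were SERPINA3N, an acute phase protease inhibitor, at 2.84 and GDPD2 at -2.20.

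In co-cultures CXCL14 was the member past the threshold. It passed the filter only through the FGF2 and BMP4 co-cultures, so its tests against -GFs medium and PA6 cells are conditioned on those levels. With BMP4 it rose from 6.31 ± 1.01 (SD, n = 2) to 11.30 ± 0.22 (SD, n = 2), a log2 change of 4.995 ± 0.51 (SE, adjusted p = 0.00925 by limma). One of the -GFs arrays was undetected, and without either of them in turn the change was 4.28 or 5.71. It was 1 of 6 members past the threshold, where 3.75% of all genes passed. Against FGF2 co-cultures the change was 3.99 ± 0.46 (SE, adjusted p = 0.0250), with 1 of 6 members and 1.44% of all genes past the threshold. That call was lost without co-culture BMP4 replicate 2 (3.83, adjusted p = 0.179) and kept without any other of the 7 arrays.

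The dimmer CXCL14 probe moved in the same way and passed the filter through the same groups. It was undetected on the 9 PA6 arrays (117.4 to 207.1) and on both -GFs co-cultures (171.6 to 187.4), read 291.4 to 305.5 with FGF2, and read 1705.9 and 1830.4 with BMP4, where it was at least 18.9-fold above -GFs medium (log2 change 4.92 ± 0.20, SE, adjusted p = 0.000183 by limma). With FGF2 it changed by 0.99 ± 0.18 (SE, adjusted p = 0.0268), just under the minimum change, and the brighter probe by 1.01 ± 0.46 (SE, adjusted p = 0.251). The difference of the BMP4 effect between co-cultures and PA6 cells was 5.04 ± 1.01 (SE, adjusted p = 0.0164 by limma) for the brighter probe, 1 of 6 members where 4.23% of all genes passed.

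**Figure D4:**
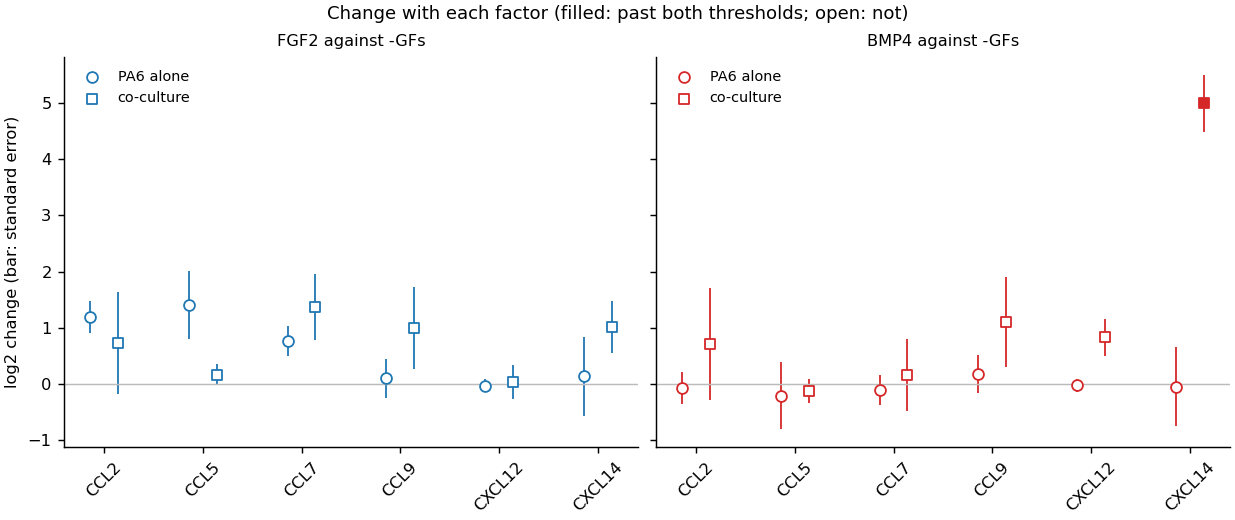
Log2 change of each tested chemokine with FGF2 (left) or BMP4 (right) against -GFs medium, circles for PA6 cells alone and squares for co-cultures, with bars of 1 standard error and filled symbols past both thresholds. CXCL14 with BMP4 in co-cultures, at 4.995, is the filled symbol.

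No member passed with FGF2 in co-cultures, where 7.42% of all genes did, and at an unadjusted p under 0.05 there were 0 of 6 members against 3373 genes. All 6 changes were above 0, with a median of 0.86 against -0.06 for all genes. CCL7 had the largest, 1.37 ± 0.58 (SE, adjusted p = 0.222), with all 3 FGF2 arrays above both -GFs arrays. It passed in 2 of 19 alternatives, described at the end. CCL9 changed by 0.995 ± 0.73 (SE, adjusted p = 0.481), again without overlap, and was detected on 3 of 3 FGF2 arrays and on neither -GFs array. The share of all genes without overlap was not counted in co-cultures, so these separations are no support for a change. CCL2 changed by 0.73 ± 0.91 (SE, adjusted p = 0.697), and without FGF2 replicate 1 by -0.16. CCL5 and CXCL12 lay between 0.04 and 0.17. The mean of the 4 tested leukocyte genes was 7.98 to 8.68 with FGF2 and 6.88 to 7.18 in -GFs medium. LAPTM5 alone rose by 4.11, while the median change of the 4 was 0.66 with 3 above 0. The part of these genes in the chemokine values was not tested.

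With BMP4 in co-cultures CXCL12 changed by 0.83 ± 0.33 (SE, adjusted p = 0.301). Its raw groups overlapped, with 7323.5 on 1 BMP4 array and 7557.3 on 1 -GFs array, and the other probes gave 0.82 and 0.63. The stromal mean was also higher with BMP4 than in -GFs medium on every array, and its part in the value was not tested. CCL9 changed by 1.10 ± 0.80 (SE, adjusted p = 0.624) and CCL2 by 0.71 ± 0.99 (SE, adjusted p = 0.841), and both rested on BMP4 replicate 2, without which they were -0.26 and -0.32. The mean of the tested adipocyte markers was 10.36 on that array and 7.78 on BMP4 replicate 1. All 8 of these markers were above 0 with BMP4 in co-cultures (median 1.61), and their part was not tested. CCL5 and CCL7 lay between -0.13 and 0.16. Against FGF2, CCL7 differed by -1.21 ± 0.58 (SE, adjusted p = 0.414) and CXCL12 by 0.79 ± 0.30 (SE, adjusted p = 0.307), and the other 3 members by -0.30 to 0.10.

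For the members other than CXCL14, no difference of a factor effect between the kinds of culture passed the threshold. For FGF2 no member passed (7.90% of all genes did), with CCL5 at -1.24 ± 0.75 (SE, adjusted p = 0.369), CCL9 at 0.90 ± 0.83, CXCL14 at 0.87 ± 0.96 and CCL7 at 0.60 ± 0.65. CCL2 and CXCL12 were at -0.46 to 0.07. The CCL5 value is conditioned on its FGF2 arrays of PA6 cells, through which it passed the filter. For BMP4, CXCL12 was at 0.85 ± 0.32 (SE, adjusted p = 0.210), CCL9 at 0.92 ± 0.87 and CCL2 at 0.79 ± 1.003, and CCL5 and CCL7 were at 0.08 to 0.26. These misses do not show that the effects were alike.

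Among the other chemokines of a fixed list, 8 of 30 were tested, and CCL3, a macrophage inflammatory protein, was the one that passed. It was undetected on all 9 PA6 arrays and on both -GFs co-cultures (168.3 and 151.9), read 260.7 (undetected), 499.1 and 293.4 with FGF2, and read 491.2 and 481.8 with BMP4. Both BMP4 arrays were above both -GFs arrays. CCL3 passed the filter only through the BMP4 co-cultures, the group in which it is high, so its tests are conditioned on that level. With BMP4 it was at least 3.70-fold higher than in -GFs medium (log2 change 2.76 ± 0.52, SE, adjusted p = 0.0509 by limma), and this call was lost without any 1 of the 4 arrays compared. With FGF2 the change was 1.54 ± 0.47 (SE, adjusted p = 0.108). The effects differed from those in PA6 cells by 1.63 ± 0.48 for FGF2 (SE, adjusted p = 0.0600) and by 2.70 ± 0.50 for BMP4 (SE, adjusted p = 0.0106), where the former passed in 11 of 16 fits that left out an array and the latter in 16.

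Of 23 chemokine receptors 4 were tested, and CXCR4, the receptor of CXCL12, was detected in co-cultures and not in PA6 cells alone. It was undetected on all 9 PA6 arrays (109.8 to 180.5). It read 2597.1 and 2308.9 in -GFs co-cultures, 1177, 968.9 and 1315.4 with FGF2, and 929 and 1194.7 with BMP4, so both -GFs arrays were above all others. In -GFs medium CXCR4 in co-cultures was at least 23.2-fold above PA6 cells. DARC, another tested receptor, was also undetected in PA6 cells alone. It was detected on 2 of 2, 2 of 3 and 2 of 2 co-cultures in -GFs, FGF2 and BMP4 medium. CXCR4 fell with both factors, with a log2 change of -1.34 ± 0.23 for FGF2 (SE, adjusted p = 0.0226 by limma) and of -1.32 ± 0.26 for BMP4 (SE, adjusted p = 0.0554).

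The FGF2 call of CXCR4 was lost without -GFs replicate 1 (adjusted p = 0.136), and the BMP4 call without any 1 of the 4 arrays compared. The effect differed from that in PA6 cells by -1.01 ± 0.30 for FGF2 (SE, adjusted p = 0.0642), a call kept in 8 of 16 fits that left out an array, and by -1.02 for BMP4 (adjusted p = 0.120). CXCR7, a scavenging receptor of CXCL12, was detected on 8 of 9 PA6 arrays and 2 of 7 co-culture arrays. It passed in no comparison.

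**Figure D5:**
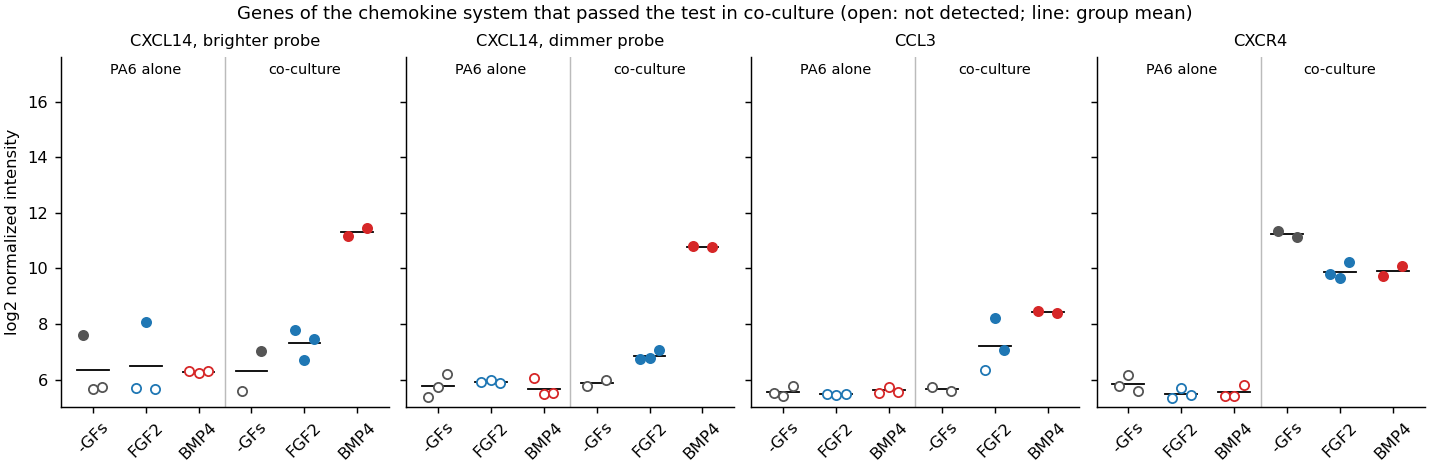
Log2 normalized intensity on each array of both CXCL14 probes, CCL3 and CXCR4, with open points where the probe was not detected and lines at group means. Both CXCL14 probes and CCL3 are highest on the 2 BMP4 co-culture arrays, and CXCR4 is highest on the 2 -GFs co-culture arrays and undetected in PA6 cells alone.

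Genes that respond to the signals known to act on chemokines were counted from fixed lists. Of 23 tested interferon-responsive genes, all 23 were above 0 with BMP4 in co-cultures, with a median of 0.64 against a median near 0 for all genes, and 4 passed, where 3.75% of all genes did, namely USP18 (2.25), OASL2 (1.75), IGTP (1.22) and IRF9 (1.08). USP18, a protease that acts on a ubiquitin-like protein, still passed whichever of the 7 arrays was left out, OASL2 in 1 of 7 such fits, IGTP in 3 and IRF9 in 2. The difference of the BMP4 effect between the kinds of culture passed for 5 of them, where 4.23% of all genes did, IFIT3 (2.67), USP18 (2.54), OASL2 (2.07), GBP2 (1.52) and IGTP (1.22), in 14, 16, 14, 12 and 10 of 16 such fits. With BMP4 in co-cultures 20 of 25 stromal markers (median 0.23) and all 8 tested adipocyte markers (median 1.61) were above 0 as well. In -GFs medium 21 of the 23 interferon-responsive genes were lower in co-cultures than in PA6 cells by more than 1 (median -2.29). The mean over the list was 8.52 to 8.62 in BMP4 co-cultures, 7.85 to 8.25 with FGF2 and 7.60 to 7.83 in -GFs medium. Its relation to these markers and to CXCL14, whose window holds the ISRE core, was not tested.

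Of 19 tested NF-kB-responsive genes, ICAM1, a leukocyte adhesion molecule, and BCL3 passed with FGF2 in co-cultures, at 3.41 and 1.09, where 7.42% of all genes passed, and ICAM1 passed with BMP4 at 2.21, where 3.75% did. With FGF2, ICAM1 still passed whichever of the 7 arrays was left out and BCL3 in 1 of 7 such fits. With BMP4, ICAM1 passed in 3 of 7, with a change of 1.54 to 2.89. Of 17 leukocyte markers 4 were tested, CD68, LYZ2, LAPTM5 and CD14, while PTPRC, CSF1R, EMR1 and ITGAM did not pass the filter. LAPTM5, a lysosomal protein of blood cells, rose by 4.11 with FGF2 (adjusted p = 0.0120 by limma).

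Markers of other cell types were counted in co-cultures as well, where 7.42% of all genes passed with FGF2 and 3.75% with BMP4. With FGF2, 10 of 12 pluripotency markers passed higher, led by TDGF1 (2.89), ESRRB (2.87) and ZFP42 (2.77), and with BMP4 3 did, ZFP42 (1.75), ESRRB (1.36) and NANOG (1.31), which passed in 2, 1 and 4 of 7 fits that left out an array. Of 8 tested endothelial markers, PECAM1 and TEK rose with FGF2 (3.24 and 2.94) and with BMP4 (1.98 and 2.11), the BMP4 calls in 2 and 5 of 7 such fits. Of 9 tested neural markers, HES5 and NES fell with FGF2 (-2.11 and -1.29), and DCX and HES5 with BMP4 (-1.54 and -1.38), the BMP4 calls in 1 and 6 of 7 such fits. TDGF1 with FGF2 passed in 5 of 7 and NES in 6 of 7.

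Of 25 stromal markers 1 passed, TWIST1 with BMP4 (1.13), which passed in 3 of 7 fits that left out an array. Of 8 tested adipocyte markers 1 passed, AGPAT2, with FGF2 (1.13, in 5 of 7 such fits) and with BMP4 (1.06, in 0 of 7, adjusted p of 0.132 to 0.348). In PA6 cells with BMP4 all 8 adipocyte markers were above 0 with a median of 1.75 and 0 passed, and their mean was 11.08 to 13.82 against 9.18 to 11.48 in -GFs medium. The stromal count with BMP4 in co-cultures was near the 3.75% of all genes that passed there, and is no result about the list. The part of these markers' cell types in the values of the chemokines was not tested.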

How the data were processed

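Total RNA of the 16 cultures had been hybridized to Illumina mouse arrays, and the authors processed the scans with GenomeStudio 2011.01 per the submitters' processing notes. The deposited values are average bead intensity per probe and array, not normalized between arrays, with a detection p-value per probe, which the authors' software derives from negative control beads. Genes are named as in that table, which holds 45281 probes.

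Intensities were background corrected from the detection p-values (normexp, limma 3.58.1, R 4.3.3), given an offset of 16, quantile normalized over 16 arrays and put on the log2 scale. A probe was kept if 1 or more groups had it detected (p under 0.05) on all of their arrays (20880 probes), and each gene took its probe with the largest mean. Linear models (limma) were fitted to the 9 PA6 and the 7 co-culture arrays separately, and to all 16 for differences of effects. A gene passed at a Benjamini-Hochberg adjusted p under 0.1 over all genes and a log2 change over 1, as in the methods of the study. Fits were tested on simulated data. Single changes of members under 0.5 are given as ranges. Genes without overlap between groups were counted only for FGF2 against -GFs medium in PA6 cells. "At least" folds are set against the detection level of the undetected arrays on the background corrected scale. They hold for that processing only, and raw intensity, which keeps the background, can give lower folds.

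The labels name biological replicates treated well by well, and nothing more tells how separate they were, so p-values measure the spread between these arrays. In PA6 cells, deviations from group means correlated at 0.07 to 0.20 across genes for the same replicate number (9 pairs) and at -0.14 to -0.01 for different numbers (18 pairs), so the number paired them. In co-cultures same-number pairs gave -0.20 to 0.28 and it did not. There, pairs from the same run of columns gave 0.098 to 0.28 (5 pairs), and pairs from other runs -0.28 to 0.098 (11 pairs).

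The members and gene lists were chosen with earlier results of these data known. Named genes are the members, the genes of the lists that passed in a tested comparison (all where at most 5, otherwise the 3 largest in each direction, with differences of effects given for the chemokine and interferon lists), and the genes nearest to CCL9. CCL11, CXCR7, DARC, SERPINA3N and GDPD2 were added after their values were seen. Promoter sequences are RefSeq, GRCm38.p6.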

Additional observations from a re-analysis of the deposited data

Results flagged for a closer look

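The change of CXCL14 with BMP4 differed between the kinds of culture, by 5.04 on the log2 scale (brighter probe, limma interaction over 16 arrays, adjusted p = 0.0164). The second probe gave a difference of 5.01. Both probes passed the filter only through co-cultures with a factor, so this test is conditioned on their levels there. No group held 4 or more arrays, so single outlying arrays were not searched for.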

How the results depend on the processing

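Alternatives covered the background correction, normalization, filter on dim probes, probe per gene, thresholds, variance prior, joint fit, replicate block and each array left out. CXCL14 with BMP4 in co-cultures passed in 18 of 18 alternatives that tested it (3.75 to 5.71), its difference from PA6 cells in 26 of 26 (3.70 to 5.76) and BMP4 against FGF2 in 16 of 18. Detection on all 16 arrays left 2 members and 0 past the threshold in each of these 3 comparisons, since CXCL14 was then not tested.

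With the replicate block, 1 member passed for BMP4 against FGF2 in PA6 cells (CCL2, also 1 with a trended variance prior, adjusted p = 0.0989), and 0 passed for BMP4 against FGF2 in co-cultures (CXCL14 4.06, adjusted p = 0.145). The block also ended the BMP4 calls of CCL3 (adjusted p = 0.125) and CXCR4 (adjusted p = 0.109) in co-cultures. The number did not pair the co-cultures, so these losses do not show that the calls fail under a true pairing. For FGF2 in co-cultures, 1 member passed, CCL7, in 1 fit over all 16 arrays (adjusted p = 0.0841) and with the run of columns in the table as a block (1.82, adjusted p = 0.0411), an alternative chosen after seeing the data.

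Leaving out each array in turn gave 0 to 1 members past the threshold for BMP4 against FGF2 in co-cultures and 1 to 2 for the difference of BMP4 effects, the second being CXCL12 without co-culture -GFs replicate 2 (1.17, adjusted p = 0.0950) or BMP4 replicate 1 (1.21, adjusted p = 0.0842). Over arrays left out, CCL2 with FGF2 in co-cultures ran from -0.16 to 1.22, CCL2 with BMP4 from -0.32 to 1.74 and CCL9 with BMP4 from -0.26 to 2.45. For differences of effects, CCL7 with FGF2 ran from -0.015 to 1.21 (turned without co-culture -GFs replicate 2), CCL2 with BMP4 from -0.24 to 1.82 and CCL9 with BMP4 from -0.43 to 2.27 (both turned without BMP4 replicate 2). The causes were not tested. Without normexp the difference of CCL9 between the kinds of culture in -GFs medium was -4.85 and that of CCL2 -2.50. Groups of 2 or 3 arrays limit every value, and for CCL5, CXCL1 and CXCL10 so does signal near background.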
